A study of Homo sapiens with 6 samples.

Results

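The proteasome genes of K562 cells were compared between cells that carry wild-type EP400 (WT) and cells whose EP400 cannot hold the TRRAP module (Delta-TRRAP). The 48 members are all genes whose symbol is PSM, a letter from A to G and a number, out of 60609 genes listed. Of these, 46 passed the count minimum and were tested, among 19114 genes tested in all. In Delta-TRRAP, 23 members were lower, 7 were higher and 16 did not pass the test. These shares were near those of other abundant genes: of the 40 members with 1000 or more normalized counts 47.5% were lower and 17.5% higher, against 45.9% and 22.1% of all genes at that level. The lowest values were those of the immunoproteasome subunit PSMB9, of several alpha ring genes, of the ATPase PSMC6 and of the chaperones PSMD9 and PSMG1, while the rises were found among genes of the 19S base, one of its chaperones, the activators and the inhibitor.

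K562 is an established human leukaemia line with erythroid and megakaryocytic features. In both groups the endogenous EP400, the scaffold and motor subunit of the TIP60 chromatin complex, is fused to a degradation tag, and all cells were given 500 nM dTAGV-1 for 24 h to remove the tagged protein. The WT group (3 libraries) expresses intact exogenous EP400 from the AAVS1 safe harbour locus, and the Delta-TRRAP group (3 libraries) expresses EP400 without its SANT and HD domains from the same locus. Each complemented line is 1 clone, so differences between clones and between genotypes cannot be told apart, and the spread between libraries does not include clone-to-clone variation. The degrader, given to both groups alike, itself works through the VHL ubiquitin ligase and the proteasome. How completely it removed the tagged protein in each group is not measured by these RNA counts.

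The proteasome degrades proteins that carry ubiquitin chains. Its 20S core is a barrel of stacked rings, in which the outer alpha rings gate the entry and the inner beta rings carry the proteolytic sites of PSMB5, PSMB6 and PSMB7. The 19S regulatory particle caps the barrel, binds ubiquitin, and unfolds the substrate with a ring of ATPases. Immune cells and cells exposed to interferon gamma replace the catalytic beta subunits with PSMB8, PSMB9 and PSMB10, which favours peptides for antigen presentation. When proteasome activity is limiting, the transcription factor NFE2L1 raises many subunit genes together through antioxidant response elements (ARE) in their promoters.

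Promoter stretches are shown for 4 members that were lower in Delta-TRRAP and that stand for different roles: PSMA3 (alpha ring), PSMC6 (ATPase ring), PSMG1 (core assembly) and PSMB9 (immunoproteasome). PSMC6, PSMG1 and PSMB9 had the lowest log2 fold change of their classes, whereas PSMA3 was picked after its values were seen. The stretches come from RefSeq on GRCh38.p14 and run 5′ to 3′ on the gene's own strand, ending at the start of transcription for PSMA3 and 50 bases before it for the others, which leaves out annotated exons. They lie at chr14:58244593-58244842 (PSMA3, plus strand), chr14:52706950-52707149 (PSMC6, plus strand), chr21:39183502-39183701 (PSMG1, minus strand) and chr6:32853942-32854141 (PSMB9, plus strand). The PSMB9 stretch lies between the RefSeq starts of PSMB9 and TAP1, the latter of which encodes a subunit of the peptide transporter. Capitals mark matches, on either strand, to the ARE core TGACNNNGC, the CCAAT box or the ETS motif CCGGAAG.
PSMA3: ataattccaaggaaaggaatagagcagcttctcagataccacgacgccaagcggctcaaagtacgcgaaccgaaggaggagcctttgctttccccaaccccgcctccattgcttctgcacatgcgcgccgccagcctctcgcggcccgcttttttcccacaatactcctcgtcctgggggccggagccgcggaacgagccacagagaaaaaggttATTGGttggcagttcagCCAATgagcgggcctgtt
PSMC6: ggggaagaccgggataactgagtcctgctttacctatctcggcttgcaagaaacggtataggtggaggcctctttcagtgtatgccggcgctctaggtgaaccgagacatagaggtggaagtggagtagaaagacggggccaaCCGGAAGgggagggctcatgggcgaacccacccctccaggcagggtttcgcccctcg
PSMG1: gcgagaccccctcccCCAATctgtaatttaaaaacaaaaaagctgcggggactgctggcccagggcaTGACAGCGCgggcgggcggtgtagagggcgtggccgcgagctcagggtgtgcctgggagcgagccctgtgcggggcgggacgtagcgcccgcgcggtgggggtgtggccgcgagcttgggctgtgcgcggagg
PSMB9: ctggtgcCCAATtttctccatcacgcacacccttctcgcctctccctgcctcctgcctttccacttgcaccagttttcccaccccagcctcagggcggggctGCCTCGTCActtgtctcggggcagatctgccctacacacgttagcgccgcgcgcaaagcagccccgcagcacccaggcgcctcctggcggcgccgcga

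Over all windows of 250 bases before to 50 after a RefSeq start, 42 members had a sequence and PSMA7, PSMB1, PSMB6, PSMB7, PSMD4 and PSMG3 had none. A gene with several windows was counted once. The ARE core was found in 15 of the 42 members (35.7%), against 16.1% of all 27305 genes with a window, and in 8 of the 21 lower members, 4 of the 7 higher and 3 of the 12 that did not pass. The ETS motif was likewise found in 15 members (35.7%), against 12.2% of all genes, and 6 of the 10 non-ATPase subunits of the 19S particle held it. The CCAAT box was found in 20 members (47.6% against 39.7% of all genes) and the E-box CACGTG in 3 (7.14% against 8.77%). The core GAAANNGAA of the interferon-stimulated response element was found in 8 members (19% against 9.86%). Both strands were searched, none of these motifs holds another, and a match is a run of letters rather than a site shown to be bound.

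Library totals lay between 35076835 and 42616061 counts. Proteasome genes made up 0.798% to 0.829% of the WT counts and 0.773% to 0.809% of the Delta-TRRAP counts, and the mitochondrial share was higher in every Delta-TRRAP library (5.07% to 6.24%) than in every WT library (3.18% to 3.71%). The normalized count of EP400 ranged from 4897 to 5377 in WT and overlapped with the 4357 to 6833 of Delta-TRRAP. It adds transcripts of the tagged locus and the transgene. All 10 erythroid and megakaryocytic markers were tested, with 4 lower and 4 higher, and their sum lay between 228000 and 229900 normalized counts in WT and between 130000 and 138400 in Delta-TRRAP, most of it TFRC. The labels call the cells lymphoblasts, but 4 of 5 B-lymphoid markers were under the count minimum, MS4A1 was at 0, and the 5 B-lymphoid markers summed to 39.5 to 46.0 in the WT libraries and 28.4 to 44.8 in the Delta-TRRAP libraries. T-lymphoid markers summed to 509 to 514 and 414 to 456, and monocyte markers, mainly LYZ, to 8027 to 8825 and 914 to 977. The fall of the monocyte sum was that of LYZ alone, from a mean of 8458 to 879.5 normalized counts. ITGAX was higher (6.34 to 33.5), and CD14, FCGR3A and CSF1R had higher means in Delta-TRRAP but did not pass or were not tested. The 7 fibroblast markers summed to 35.5 to 57.0 in the WT libraries and 910 to 973 in the Delta-TRRAP libraries, where COL1A2 made up most of the sum, with LUM at 0. The part of these shifts in the results for proteasome genes was not tested.

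Across the members, the counts of falls and rises were close to those of other genes of similar abundance. At an adjusted p of 0.01 (edgeR quasi-likelihood test, Benjamini-Hochberg over all genes tested), 23 of 46 members (50%) were lower, against 27.6% of all genes tested, and 7 (15.2%) were higher, against 30.7%. Among the 6804 genes whose normalized counts averaged 1000 or more, however, 45.9% were lower and 22.1% higher, and of the 40 members above that level 19 (47.5%) were lower and 7 (17.5%) were higher. Of the 46 members, 27 were lower and 9 higher without overlap between the libraries of the groups, against 33.7% and 37.4% of all genes tested. The median log2 fold change (Delta-TRRAP over WT) was -0.20 over the members, -0.14 over the genes above 1000 counts and 0.03 over all genes tested. One member, PSMB9, also passed a fold change of 2, where 22.6% of all genes did so in either direction and 6.08% as falls. The shares without overlap and with a fold change of 2 were not computed for the genes above 1000 counts. They are therefore not matched for abundance. In bulk RNA, fewer cells with a transcript and less of it per cell cannot be told apart.

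**Figure D1:**
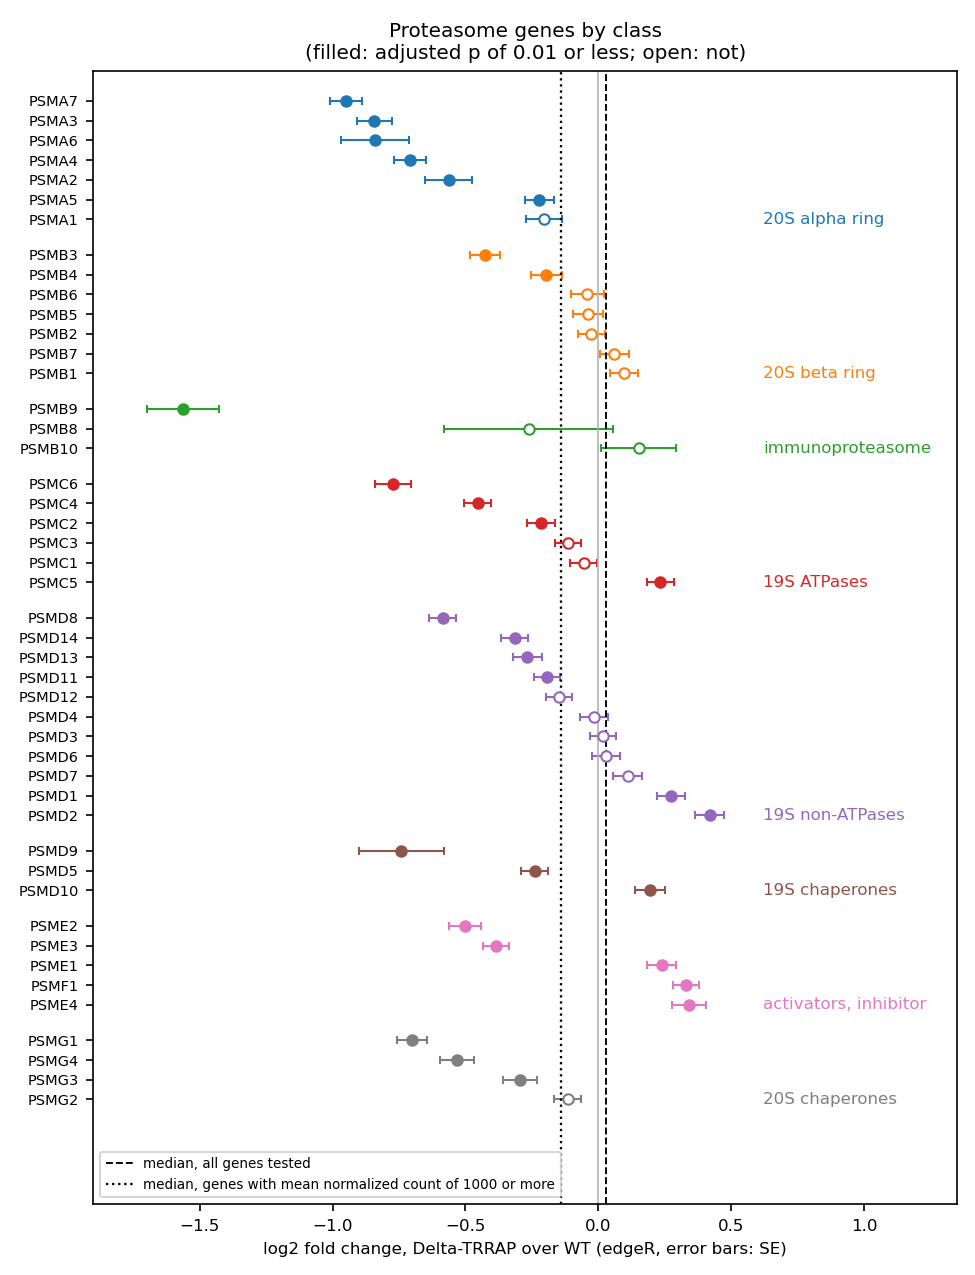
Log2 fold change (x axis, Delta-TRRAP over WT, edgeR) of the 46 tested proteasome genes, one row per gene, coloured by class, with bars for the standard error; filled points have an adjusted p of 0.01 or less. The alpha ring genes sit to the left, between -0.95 and -0.20, the constitutive beta ring genes between -0.43 and 0.10, and PSMB9 alone lies beyond -1.

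The alpha ring had the largest share of lower genes among the 8 classes. Of its 7 tested genes, 6 were lower and none was higher, with a median log2 fold change of -0.71, and 7 of 7 had no overlap between groups. The counts of every class stand beside 45.9% lower and 22.1% higher among all genes averaging 1000 or more normalized counts. Over all genes tested the shares were 27.6% and 30.7%. PSMA7 (ENSG00000101182.15), an alpha subunit encoded on chromosome 20, had normalized counts of 10440, 10540 and 9494 in WT and 5353, 4912 and 5523 in Delta-TRRAP. Each Delta-TRRAP library thus lay well under the lowest WT library, which gave a log2 fold change of -0.95 ± 0.059 (SE; edgeR adjusted p = 1.65e-09). PSMA3, PSMA6, PSMA4 and PSMA2 followed at -0.84, -0.84, -0.71 and -0.56, and PSMA5 at -0.22. PSMA1 was the least changed, with 1638, 1744 and 1591 normalized counts in WT and 1453, 1299 and 1570 in Delta-TRRAP. Its groups did not overlap, but the highest Delta-TRRAP library was close to the lowest WT library. Its log2 fold change of -0.20 ± 0.067 (SE) did not pass (edgeR adjusted p = 0.0136). It passed without Delta-TRRAP replicate 3 (edgeR adjusted p = 0.00117) and with no count minimum (7.87e-04), but in no other fit at 0.01. With library size scaling it shrank to -0.070 (edgeR adjusted p = 0.373). The germline subunit PSMA8 had 0, 0 and 1 counts in WT and 1, 2 and 3 in Delta-TRRAP and was not tested.

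For 5 members, 1% or more of the canonical transcript is shared with exons of a readthrough or overlapping gene on the same strand, and reads on shared exons are discarded as ambiguous by the counting mode that was used. These are PSMA1, PSMA2, PSMA6, PSMB10 and PSMD9, for which 67.0%, 100%, 81.4%, 56.1% and 28.8% of the bases of the canonical transcript were shared in GENCODE 44. Their counts rest on the remaining reads, and their levels are not comparable with those of other subunits. Without them, all 4 alpha ring genes left were lower, at a median log2 fold change of -0.78, and 20 of 41 members were lower and 7 higher. PSMA6 has in addition a processed copy, PSMA6P1, whose count in WT was 17.9% of its own, whereas the other copies with more than 10 normalized counts, PSMC1P1 and PSME2P2, had 4.45% and 2.94% of their parents' counts.

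The constitutive beta ring did not move with the alpha ring. Of 7 genes, 2 were lower and 5 did not pass, with a median log2 fold change of -0.04 that turned to 0.06 with upper quartile scaling and 0.09 with library size scaling. PSMB3, a structural subunit, was the lowest, with 5715, 5885 and 5345 normalized counts in WT and 4370, 3972 and 4264 in Delta-TRRAP. All its Delta-TRRAP libraries lay under all WT libraries (log2 fold change -0.43 ± 0.056 SE, edgeR adjusted p = 5.97e-06), and PSMB4, another structural subunit, was lower at -0.20. The class held 1 lower gene in place of 2 with upper quartile or library size scaling, a count minimum of 50, the replicate block, or without any one of WT replicates 1 and 2 and Delta-TRRAP replicates 1 and 2, and PSMB3 passed in each of these fits. PSMB1 was the highest, with 13960, 14530 and 13960 in WT and 14750, 14540 and 16120 in Delta-TRRAP. Its log2 fold change of 0.10 ± 0.054 (SE) did not pass with the scaling used (edgeR adjusted p = 0.12). It passed with upper quartile scaling (edgeR adjusted p = 0.00598) and library size scaling (0.00129).

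The 3 proteolytic subunits did not pass in either direction with the scaling used, and their groups overlapped. PSMB5, the chymotrypsin-like subunit, had 5418, 5433 and 4867 normalized counts in WT and 5238, 4910 and 5158 in Delta-TRRAP, ranges that overlap (log2 fold change -0.04 ± 0.056 SE, edgeR adjusted p = 0.558). PSMB6, the caspase-like subunit, had 2065, 2257 and 2016 in WT and 2074, 1900 and 2191 in Delta-TRRAP, which also overlap (-0.04 ± 0.062 SE, edgeR adjusted p = 0.58). The signs of both small values turned with other scalings. PSMB7, the trypsin-like subunit, had 7672, 8316 and 7598 in WT and 8216, 7829 and 8540 in Delta-TRRAP, again with overlap (0.06 ± 0.055 SE, edgeR adjusted p = 0.348). With library size scaling PSMB7 passed as higher, at 0.19 (edgeR adjusted p = 0.00553).

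The ratio of the rings within each library does not depend on how the libraries were scaled. Levels were computed as RPKM over the exon model with library sizes scaled by TMM, and summed over the alpha genes without shared exons (PSMA3, PSMA4, PSMA5, PSMA7 and the nearly silent PSMA8) and over the 7 beta genes. The summed alpha level over the summed beta level was 0.547, 0.499 and 0.496 in WT and 0.318, 0.318 and 0.319 in Delta-TRRAP. Every Delta-TRRAP library was therefore under every WT library, and the 3 Delta-TRRAP values were nearly equal. With the length of the canonical transcript in place of the exon model, the ratios were 0.548 to 0.610 in the WT libraries and 0.341 to 0.344 in the Delta-TRRAP libraries. On the exon model scale the summed alpha level went from 361.6 ± 23.2 (SD, n = 3) to 213.6 ± 9.20 (SD, n = 3), and the summed beta level from 703.3 ± 27.5 to 670.8 ± 28.3 (SD, n = 3 each). PSMA7, whose chromosomal neighbours were lower as well, held the largest part of the alpha sum (mean 149 in WT and 77.2 in Delta-TRRAP). PSMA4 went from 86.5 to 52.9, PSMA3 from 82 to 45.7 and PSMA5 from 44 to 37.8.

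**Figure D2:**
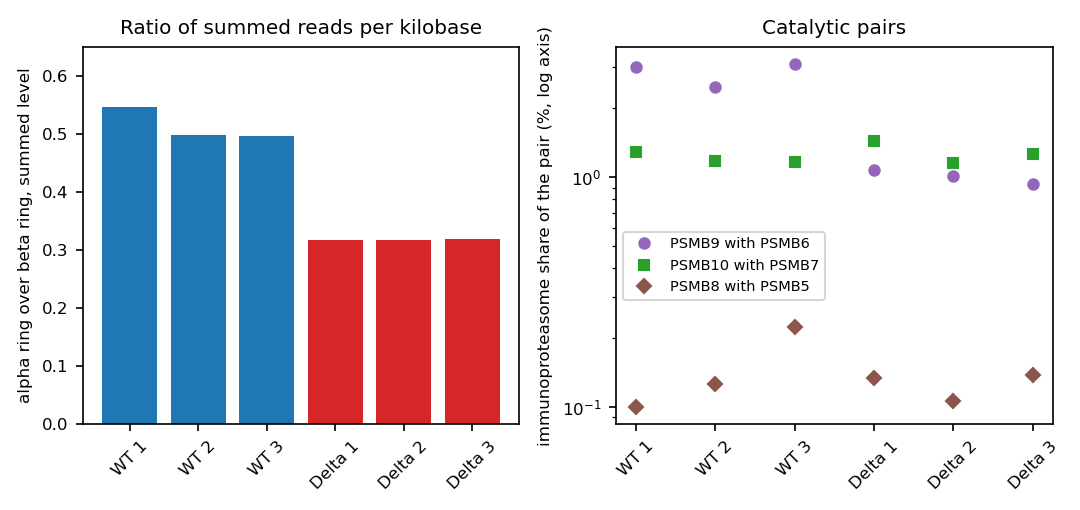
Left, the summed level of alpha ring genes over that of beta ring genes (y axis, from 0) in each of the 6 libraries, WT in blue and Delta-TRRAP in red. Right, the immunoproteasome share of each catalytic pair (y axis, percent, log scale) in each library, in which the PSMB9 share is 2.46% to 3.10% in the 3 WT libraries and 0.933% to 1.07% in the 3 Delta-TRRAP libraries, while the other 2 pairs overlap between groups. PSMB10 counts leave out reads on shared exons.

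Among the immunoproteasome subunits, PSMB9 was lower and the others did not pass. PSMB9 (ENSG00000240065.8, GRCh38 chromosome 6, 32844136 to 32859851) had 147.9, 131.4 and 148.5 normalized counts in WT and 51.97, 44.84 and 47.60 in Delta-TRRAP. The groups were far apart, at 0.338 of the WT level, a log2 fold change of -1.56 ± 0.136 (SE; edgeR adjusted p = 7.37e-08). PSMB10, the counterpart of PSMB7, had 91.19, 89.21 and 81.40 in WT and 108.8, 82.86 and 99.43 in Delta-TRRAP, with overlap (0.15 ± 0.140 SE, edgeR adjusted p = 0.351). PSMB8, the counterpart of PSMB5, had 12.16, 15.35 and 24.42 in WT and 15.69, 11.70 and 15.87 in Delta-TRRAP. At so few counts no difference was detectable (-0.26 ± 0.319 SE, edgeR adjusted p = 0.484), and its sign rested on WT replicate 3, without which it was 0.054. The thymus subunit PSMB11 had 0 counts in all 6 libraries.

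Set against its constitutive counterpart per length, the PSMB9 share of PSMB9 plus PSMB6 was 3.01%, 2.46% and 3.10% in WT and 1.07%, 1.01% and 0.933% in Delta-TRRAP. All 6 values were low, and the Delta-TRRAP ones lay under the WT ones. The PSMB10 share of its pair with PSMB7 was 1.16% to 1.29% in the WT libraries and 1.15% to 1.44% in the Delta-TRRAP libraries, and the PSMB8 share of its pair with PSMB5 was 0.0998% to 0.223% and 0.106% to 0.137%. These shares depend on the transcript length used, and with canonical transcripts the PSMB9 share was 4.50% to 5.63% in the WT libraries and 1.73% to 1.99% in the Delta-TRRAP libraries. PSMB10 counts leave out reads on shared exons, so the PSMB10 share cannot be ranked against those of the other pairs.

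TAP1, whose RefSeq start lies 488 bases from that of PSMB9 and faces the other way, was lower as well. It had 495.5, 426.9 and 461.9 normalized counts in WT and 208.9, 202.8 and 193.6 in Delta-TRRAP, without overlap (log2 fold change -1.19 ± 0.085 SE, edgeR adjusted p = 6.84e-09). Of the 10 genes for interferon signalling and peptide transport, 2 were lower (TAP1 and the receptor subunit IFNGR1) and 4 were higher. Over all genes tested, 27.6% were lower and 30.7% higher. NLRC5, the transactivator of MHC class I genes, had the largest rise of the list, from 3.04, 2.88 and 1.02 to 45.1, 79.0 and 73.0 normalized counts (log2 fold change 4.75 ± 0.395 SE, edgeR adjusted p = 4.24e-08). The interferon-responsive factor IRF1 rose by 0.70 on the log2 scale and the peptide-loading factor TAPBP by 0.37. PSMB9 and TAP1 thus moved opposite to NLRC5, IRF1 and TAPBP.

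**Figure D3:**
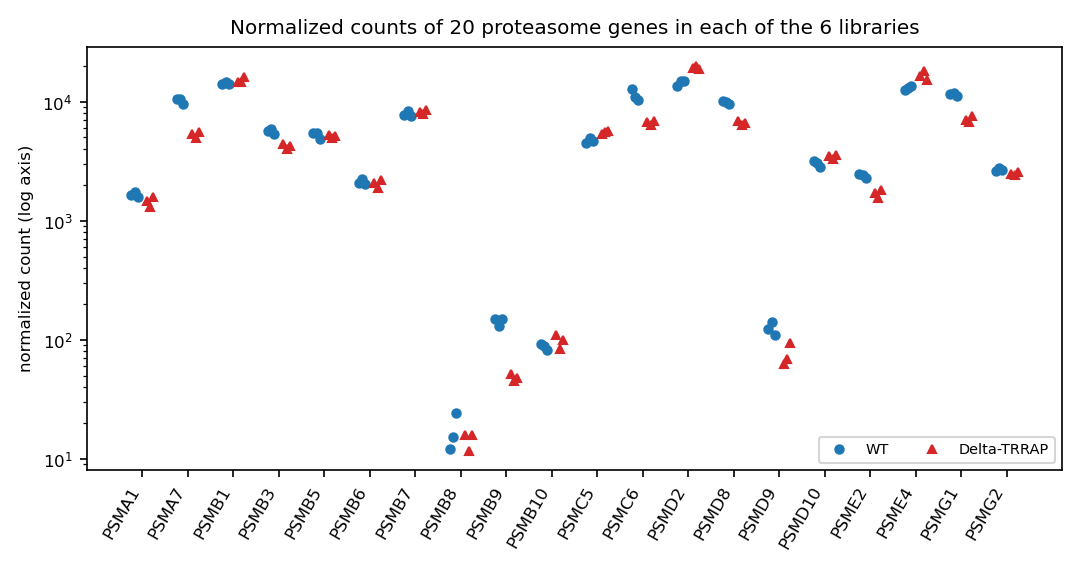
Normalized counts (y axis, log scale) of 20 proteasome genes in each of the 3 WT libraries (blue circles) and the 3 Delta-TRRAP libraries (red triangles), with one point per library. PSMA7, PSMC6, PSMD8, PSMG1 and PSMB9 separate downwards, PSMC5 and PSMD2 separate upwards, and PSMB5, PSMB6, PSMB7, PSMB8 and PSMB10 overlap.

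The 6 ATPases of the 19S base, which form the unfolding ring, did not move together. In this class 3 were lower, 1 was higher and 2 did not pass, with a median log2 fold change of -0.17. All genes averaging 1000 or more normalized counts were split as well, with 45.9% lower and 22.1% higher. PSMC6 was the lowest ATPase, with 12710, 11040 and 10390 normalized counts in WT and 6688, 6415 and 6900 in Delta-TRRAP. The groups lay well apart, at a log2 fold change of -0.77 ± 0.067 (SE; edgeR adjusted p = 7.29e-08), and PSMC4 and PSMC2 were lower at -0.45 and -0.22. PSMC5 was higher in every Delta-TRRAP library, with 4501, 4924 and 4672 in WT against 5356, 5554 and 5668 (0.23 ± 0.052 SE, edgeR adjusted p = 9.45e-04). Subunits of the same ring thus differed in sign, and with library size scaling 2 ATPases were lower and 1 higher.

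Of the 11 non-ATPase subunits of the 19S particle, 4 were lower, 2 were higher and 5 did not pass. Their median log2 fold change of -0.01 turned to 0.09 with upper quartile and 0.12 with library size scaling, under which 2 were lower and 3 higher. PSMD8, a lid subunit, was the lowest, with 10150, 9855 and 9639 normalized counts in WT and 6853, 6336 and 6581 in Delta-TRRAP. No library of one group reached the other (log2 fold change -0.58 ± 0.051 SE, edgeR adjusted p = 7.27e-08). PSMD14, the deubiquitinase of the lid, PSMD13 and PSMD11 were lower at -0.31, -0.27 and -0.19. The large scaffold subunits of the base were the ones that rose. PSMD2 had 13570, 15010 and 14860 in WT and 19280, 19850 and 18960 in Delta-TRRAP, again without overlap (0.42 ± 0.054 SE, edgeR adjusted p = 4.90e-06), and PSMD1 was higher by 0.27. The ubiquitin receptor PSMD4 was at -0.01 and did not pass (edgeR adjusted p = 0.817).

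Of the 20S assembly chaperones PSMG1 to PSMG4, which guide alpha ring formation, 3 were lower and none was higher, with a median log2 fold change of -0.41, and with upper quartile or library size scaling 2 were lower. PSMG1 had 11700, 11890 and 11110 normalized counts in WT and 7067, 6701 and 7596 in Delta-TRRAP, far apart (log2 fold change -0.70 ± 0.056 SE, edgeR adjusted p = 2.93e-08). PSMG4 and PSMG3, which act as a pair, were lower at -0.53 and -0.29. PSMG2, the partner of PSMG1, had 2639, 2756 and 2673 in WT and 2451, 2417 and 2584 in Delta-TRRAP. These ranges did not overlap but the difference was small and did not pass (-0.11 ± 0.050 SE, edgeR adjusted p = 0.0542; 0.018 with library size scaling, a change of sign).

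The chaperones of the 19S base were split, with 2 lower and 1 higher (1 and 1 with upper quartile or library size scaling). PSMD9 had 123.6, 140.1 and 108.9 normalized counts in WT and 62.76, 68.24 and 93.08 in Delta-TRRAP, and PSMD9 counts leave out reads on shared exons. The groups did not overlap (log2 fold change -0.74 ± 0.159 SE, edgeR adjusted p = 7.05e-04), and PSMD5 was lower at -0.24. PSMD10, also known as gankyrin, was higher, with 3175, 3047 and 2846 in WT and 3528, 3295 and 3558 in Delta-TRRAP. That difference of 0.20 ± 0.055 (SE; edgeR adjusted p = 0.00558) no longer passed in 4 of the 6 fits that left out one library, where the highest adjusted p was 0.0452 (without WT replicate 3).

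All 5 activator and inhibitor genes passed the test, in both directions. PSME2, which pairs with PSME1 in the interferon-inducible cap of the core, had 2451, 2419 and 2287 normalized counts in WT and 1723, 1540 and 1794 in Delta-TRRAP. It lay lower in each library (log2 fold change -0.50 ± 0.060 SE, edgeR adjusted p = 2.65e-06), whereas PSME1, its neighbour on chromosome 14, was higher by 0.24 (edgeR adjusted p = 0.00122). The PSME2 level over the PSME1 level was 0.778, 0.709 and 0.677 in WT and 0.445, 0.409 and 0.438 in Delta-TRRAP, so the ratio of the partners differed between groups whatever the scaling. Which partner is the more abundant depends on the transcript length, since with canonical transcripts the ratios were 1.66 to 1.91 in the WT libraries and 1.00 to 1.09 in the Delta-TRRAP libraries. PSME3, which forms a nuclear cap of its own, was lower at -0.39. PSME4, a single-chain activator, was higher, with 12460, 13080 and 13460 in WT and 16330, 17960 and 15130 in Delta-TRRAP and no overlap (0.34 ± 0.062 SE, edgeR adjusted p = 1.69e-04). The inhibitor PSMF1 was higher by 0.33 (edgeR adjusted p = 2.41e-05).

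Some members lie in stretches of chromosome where most genes were lower. For each member, the median log2 fold change of up to 20 neighbours was taken, 10 on each side, leaving out genes that averaged under 100 normalized counts. The neighbours' median was -0.3 or lower for 5 members, and all 5 were lower themselves. PSMA7 (-0.95, neighbours -0.80), PSMD9 (-0.74, neighbours -0.71), PSMD8 (-0.58, neighbours -0.60), PSMC4 (-0.45, neighbours -0.32) and PSMD13 (-0.27, neighbours -0.43) differed from their surroundings by at most 0.165 log2 units. The part of these stretches in the falls was not tested. Among the other 41 members 18 were lower, and several of these stood apart from their surroundings: PSMA3 (-0.84, neighbours 0.16), PSMB9 (-1.56, neighbours -0.08), PSMC6 (-0.77, neighbours -0.14), PSMG1 (-0.70, neighbours -0.16) and PSMG4 (-0.53, neighbours 0.34). Of the higher members, PSMD2 (0.42, neighbours 0.27) and PSMD1 (0.27, neighbours 0.22) had the highest neighbours' medians. Only PSMC5 (0.23, neighbours -0.08) had a negative one. The part of the surroundings in the rises was not tested either. In all, 30 of the 46 members had the sign of their neighbours' median, and 33 of the 46 had a negative log2 fold change. The share of all genes tested that had their neighbours' sign was not computed. Nor was the share that were lower among genes with a neighbours' median of -0.3 or lower. A link between the members and their surroundings was not tested.

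**Figure D4:**
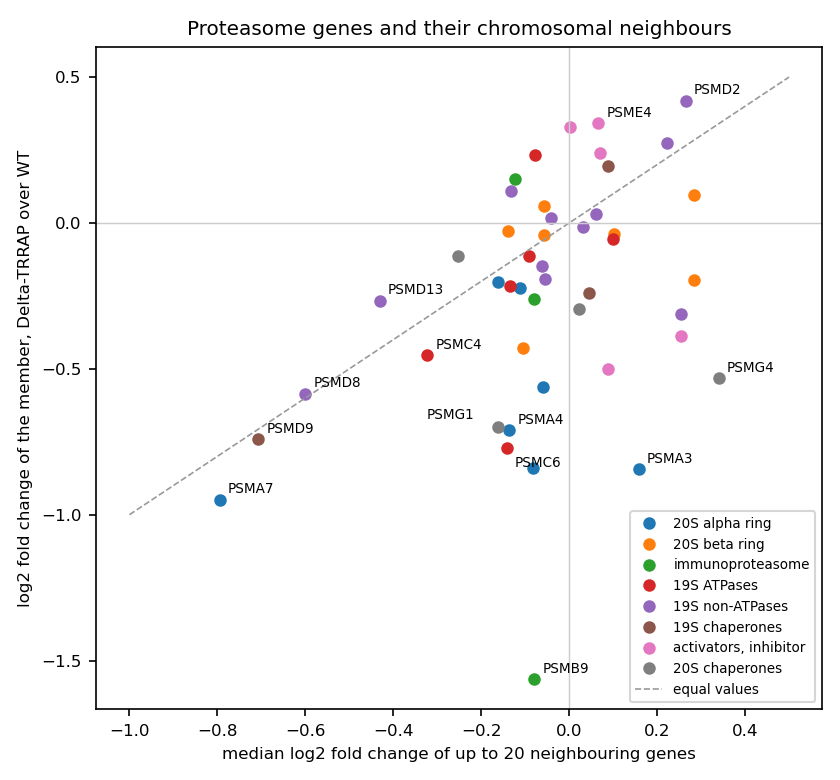
Log2 fold change of each of the 46 tested proteasome genes (y axis, Delta-TRRAP over WT) against the median log2 fold change of its neighbouring genes (x axis), coloured by class, with a dashed line where both are equal. PSMA7, PSMD9, PSMD8, PSMC4 and PSMD13 lie to the left near the line, and PSMA3, PSMC6, PSMG1 and PSMB9 lie under it with neighbours between -0.16 and 0.16.

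Of 12 further proteasome and partner genes, 4 were lower and 2 higher (45.9% and 22.1% of all genes at 1000 or more counts). The ubiquitin receptor ADRM1 was the lowest at a log2 fold change of -0.57 ± 0.053 (SE; edgeR adjusted p = 1.4e-07), in the same chromosome 20 stretch as PSMA7 (neighbours -0.83). The deubiquitinase UCHL5, which docks on ADRM1, was lower at -0.45 and the small subunit SEM1 at -0.48. PAAF1, which binds the base ATPases, was the highest at 0.32 (edgeR adjusted p = 4.48e-05). POMP, the maturation factor that acts on the beta ring, was at -0.09 and did not pass (edgeR adjusted p = 0.21).

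Of the 9 genes of the NFE2L1 pathway, 1 was lower and 1 was higher, against 27.6% and 30.7% of all genes tested. Among genes averaging 1000 or more normalized counts, as most of the 9 did, 45.9% were lower and 22.1% higher. NFE2L3, a factor of the same family as NFE2L1, had 1822, 1657 and 1593 normalized counts in WT and 530.5, 542.0 and 519.4 in Delta-TRRAP. The groups were far apart (log2 fold change -1.67 ± 0.064 SE, edgeR adjusted p = 5.27e-12). NFE2L1 itself was at -0.18 (edgeR adjusted p = 0.0141) and NFE2L2 at 0.04 (edgeR adjusted p = 0.45), neither of which passed, and the small MAF partner MAFG was higher by 0.32 (edgeR adjusted p = 1.04e-04).

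Genes that feed substrates to the proteasome were mixed, as were all genes tested, of which 27.6% were lower and 30.7% higher. Among genes averaging 1000 or more normalized counts, 45.9% were lower and 22.1% higher. Among 6 ubiquitin and E1 genes, 3 were lower and 1 was higher, from UBA6, an E1 enzyme, at -0.71 (edgeR adjusted p = 8.9e-09) to the polyubiquitin gene UBB at 0.37 (edgeR adjusted p = 9.21e-06). Among 9 p97 and shuttle factor genes, 1 was lower and 3 were higher, and the shuttle factor UBQLN4 was the lowest at -0.22 (edgeR adjusted p = 0.00121). Among 9 genes of the VHL ligase, through which the degrader acts, 4 were lower and 2 were higher. VHL, its substrate receptor, was the lowest at -0.46 (edgeR adjusted p = 5.05e-07) and the ubiquitin-conjugating enzyme gene UBE2R2 the highest at 0.36 (edgeR adjusted p = 1.77e-05).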

How the data were processed

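Poly(A) RNA of 3 WT and 3 Delta-TRRAP libraries was analysed. The counts per gene were deposited without normalization. The authors had aligned reads to hg38 with STAR, kept reads with one mapping position, and counted them with HTSeq 2.0.2 (reverse strand, union mode) on GENCODE 32. Union mode drops reads that fall on exons of more than one gene, and unique mapping lowers genes with near-identical copies. The authors' table of normalized counts, with 3 columns of another condition, and their table of fold changes and p-values were not used.

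Counts were fitted with edgeR 4.0.16 in R 4.3.3 (TMM, quasi-likelihood F test, group as the only term) over the 19114 genes that averaged 5 or more normalized counts, with Benjamini-Hochberg adjustment over all of them. Lower and higher mean an adjusted p of 0.01 or less. A call in addition needed a fold change of 2. Normalized counts are counts scaled to a common library size with the TMM factors. Standard errors are of log2 fold changes. No p was computed for the members as a set, and levels were compared between genes only per length.

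Library totals were 35076835 to 42616061 counts. Squared differences between replicate pairs were 4.93 to 15.5 times those of counting alone (chi-square per degree of freedom), so no library was a repeat of another. The study describes biological replicates of 1 clone per line, and p-values measure the spread between these cultures only. Gene positions and lengths came from GENCODE 44 on GRCh38, the same assembly, which held the IDs of 19041 tested genes. The members and gene lists were chosen with earlier results of these data known. Values in every library are given for the catalytic subunits, for called genes and for the lowest and highest member of each class, and pathway lists are given by counts with their called, lowest and highest genes. Some genes and a motif covered by this search are not reported here. PSMA3 and others outside this rule were named after their values were seen. Alternatives were other scalings (DESeq2's size factors, upper quartile, library size), count minimums, thresholds, DESeq2 1.42.0, limma-voom (limma 3.58.1), the replicate number as a block, leaving out each library and, chosen after seeing the data, canonical transcript lengths.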

Additional observations from a re-analysis of the deposited data

How the results depend on the processing

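Upper quartile and library size scaling shifted the median over all genes by 0.101 and 0.137 on the log2 scale. The count of lower members went from 23 to 16 under both, and that of higher members from 7 to 9 and 10. PSMB5 then turned to 0.063 and 0.095 and PSMB6 to 0.061 and 0.093, and with a count minimum of 50 they stood at 0.034 and 0.033. PSMG2 turned to 0.018 with library size scaling, as did the log2 ratio of summed levels of the beta ring (0.065), the 19S non-ATPases (0.094), the base chaperones (0.068) and the activators with the inhibitor (0.069). None of these genes passed the test in those fits, and summed levels were not tested. The alpha ring kept 5 or 6 of 7 genes lower under every scaling.

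A fold change of 1.5 gave 6750 called genes, 8 of them members (PSMA3, PSMA4, PSMA6, PSMA7, PSMB9, PSMC6, PSMD9 and PSMG1), and a count minimum of 50 gave 1964 called genes, since fewer genes were tested and scaled. DESeq2 gave 3983 called genes and 24 lower members. Leaving out one library gave 1 to 2 called members (PSMA7 in addition without WT replicate 3), 19 to 25 lower and 6 to 7 higher. It turned PSMB6 (range -0.090 to 0.018) and PSMB8 (-0.46 to 0.054). The cause of these turns was not tested.

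Replicate numbers are shared by the groups, but same-numbered libraries did not deviate together (correlations -0.00946, -0.0293 and -0.019). With the replicate number as a block, 4184 genes and 1 member were called, 21 members were lower and 6 higher. PSMD10 did not pass with the block (adjusted p = 0.0134 by edgeR). Depth limits PSMB8, PSMA8 and PSMB11.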
